A study of Mus musculus with 18 samples.

Results

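The unfolded protein response and the folding machinery of the endoplasmic reticulum (ER) were followed through 10 genes in alphaTC1, a mouse cell line with the identity of pancreatic alpha cells. The genes were chosen by symbol from the raw count tables: Hspa5, Hsp90b1, Hyou1, Dnajb9, Sdf2l1, Pdia4, Pdia6, Creld2, Manf and Xbp1, which are 10 of the 55487 genes listed. RNA was sequenced from 18 libraries in 2 experiments. In experiment 1, cells transduced with an shRNA against Smndc1 (shSmndc1, 3 libraries) were set against cells with the empty vector (EV, 3 libraries), and both were taken on day 5. Experiment 2 added RIP-mCherry, in which the rat insulin promoter drives a fluorescent protein. Cells with the shRNA were sorted into a reporter-positive (shSmndc1_RIP_pos, 4 libraries) and a reporter-negative population (shSmndc1_RIP_neg, 4 libraries), and the controls carried the empty vector and the reporter (EV_RIP, 4 libraries). For experiment 2 no day is stated, nor is it stated whether EV_RIP cells passed the sorter. All groups are 1 cell line of tumour origin, so none holds the mixture of cells of an islet.

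Proteins bound for secretion, such as glucagon in alpha cells, fold in the ER with the help of chaperones and of enzymes that form disulfide bonds. When unfolded protein accumulates there, the sensors IRE1, PERK and ATF6 start the unfolded protein response, which slows translation and raises chaperone genes. IRE1 splices the mRNA of Xbp1 to give an active transcription factor, and ATF6 is cut to release another. Counts per gene do not tell spliced from unspliced Xbp1 mRNA.

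XBP1 and ATF6 are known to bind the ER stress response element (ERSE), which is CCAAT, 9 bases of any kind, then CCACG. RefSeq promoters of GRCm38.p6 (300 bases, 250 before the annotated start) were matched for 8 of the 10 genes, Hyou1 and Manf being the others. The exact ERSE letters, read on both strands, were in 4 of these 8 promoters, against 39 of 32851 promoters (0.119%). The windows are shown here because they are what the 4 genes have in common in sequence; capitals mark CCAAT and CCACG, and all are written 5′ to 3′ on the strand that reads CCAAT first.
Hspa5, chr2:34772020-34772048 (+): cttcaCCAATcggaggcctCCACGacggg
Hsp90b1, chr10:86705633-86705661 (-): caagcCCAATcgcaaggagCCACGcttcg
Hsp90b1, chr10:86705528-86705556 (+): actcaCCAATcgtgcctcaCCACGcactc
Creld2, chr15:88819515-88819543 (-): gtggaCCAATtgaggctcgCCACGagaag
Pdia6, chr12:17266486-17266514 (+): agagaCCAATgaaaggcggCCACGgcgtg
The element of Hspa5 lay from -65 to -47 relative to the start, that of Pdia6 from -98 to -80 and that of Creld2 from -126 to -108, the last on the strand opposite to the gene. Hsp90b1 held 2 elements, from -212 to -194 and, on the opposite strand, from -107 to -89. Dnajb9, Sdf2l1, Pdia4 and Xbp1 held no exact ERSE in this window. The ERSE-II letters (ATTGG, any base, CCACG), found in 0.0365% of all promoters, and those of the UPRE (TGACG directly followed by TGG), found in 0.676%, were in none of the 8. The core CCACG, which also counts the second part of each ERSE, was in 32.8% of all promoters. A match describes letters only.

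The whole windows of Hspa5, Creld2 and Dnajb9 are given because these are the 3 genes whose counts changed in the comparisons of experiment 2 with EV_RIP. Capitals mark the ERSE parts and the CCACG cores, which read CGTGG where they lie on the other strand. Dnajb9 had cores from -108 to -104 and from -15 to -11.
Hspa5, chr2:34771840-34772139 (+): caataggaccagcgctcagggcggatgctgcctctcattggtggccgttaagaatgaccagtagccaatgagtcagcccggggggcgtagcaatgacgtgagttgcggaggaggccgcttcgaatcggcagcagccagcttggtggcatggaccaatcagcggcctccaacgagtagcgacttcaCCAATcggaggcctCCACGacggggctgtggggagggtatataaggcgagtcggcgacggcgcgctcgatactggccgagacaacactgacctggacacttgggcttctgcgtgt
Creld2, chr15:88819396-88819695 (+): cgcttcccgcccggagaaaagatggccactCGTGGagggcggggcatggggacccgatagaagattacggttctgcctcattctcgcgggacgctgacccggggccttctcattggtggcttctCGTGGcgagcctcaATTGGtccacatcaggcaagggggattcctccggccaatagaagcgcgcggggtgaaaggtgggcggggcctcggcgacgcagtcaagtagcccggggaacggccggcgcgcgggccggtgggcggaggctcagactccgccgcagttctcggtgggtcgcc
Dnajb9, chr12:44210019-44210318 (-): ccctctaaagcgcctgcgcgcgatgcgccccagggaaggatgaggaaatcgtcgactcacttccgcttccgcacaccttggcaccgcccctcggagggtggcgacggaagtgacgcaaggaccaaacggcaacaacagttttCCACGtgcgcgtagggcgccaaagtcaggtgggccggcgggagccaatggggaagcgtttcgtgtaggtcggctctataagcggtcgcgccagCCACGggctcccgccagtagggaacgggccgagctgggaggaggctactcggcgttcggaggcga
Creld2 and Hspa5 hold an ERSE in the window and Dnajb9 does not. Hsp90b1 and Pdia6 carry the element as well, and neither passed the test in a comparison with all libraries.

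In control cells the genes spanned a wide range of levels. Per length of transcript (FPKM, the authors' values), Hsp90b1, the ER member of the HSP90 family, was highest at 300 ± 21.5 in EV (SD, n = 3), followed by Hspa5, the HSP70 chaperone BiP, at 196 ± 23.7 and by Pdia6, a protein disulfide isomerase, at 105 ± 21.5. Pdia4, Hyou1, Xbp1 and Manf came next with means of 55.2, 52.2, 48.5 and 46.7 FPKM in EV, and the libraries of each neighbouring pair overlapped. Sdf2l1 (33.8 ± 4.70 FPKM) and Creld2 (29.4 ± 2.187 FPKM) overlapped as well, and Dnajb9, a J-domain cochaperone of BiP, was lowest at 15.5 ± 0.53 FPKM in EV. The order in EV_RIP was alike at both ends, with Hsp90b1 at 315 ± 24.8 FPKM and Dnajb9 at 11.3 ± 1.795 FPKM (SD, n = 4). The place of Creld2 was the one that moved most: it ranked 6 in shSmndc1 cells and 5 in both sorted populations, against 9 in EV and in EV_RIP. In the libraries labelled shSmndc1_RIP_neg, Hspa5 (402 ± 118 FPKM) and Hsp90b1 (391 ± 32.9 FPKM) overlapped, and in the other 4 groups the mean of Hsp90b1 was the higher.

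**Figure D1:**
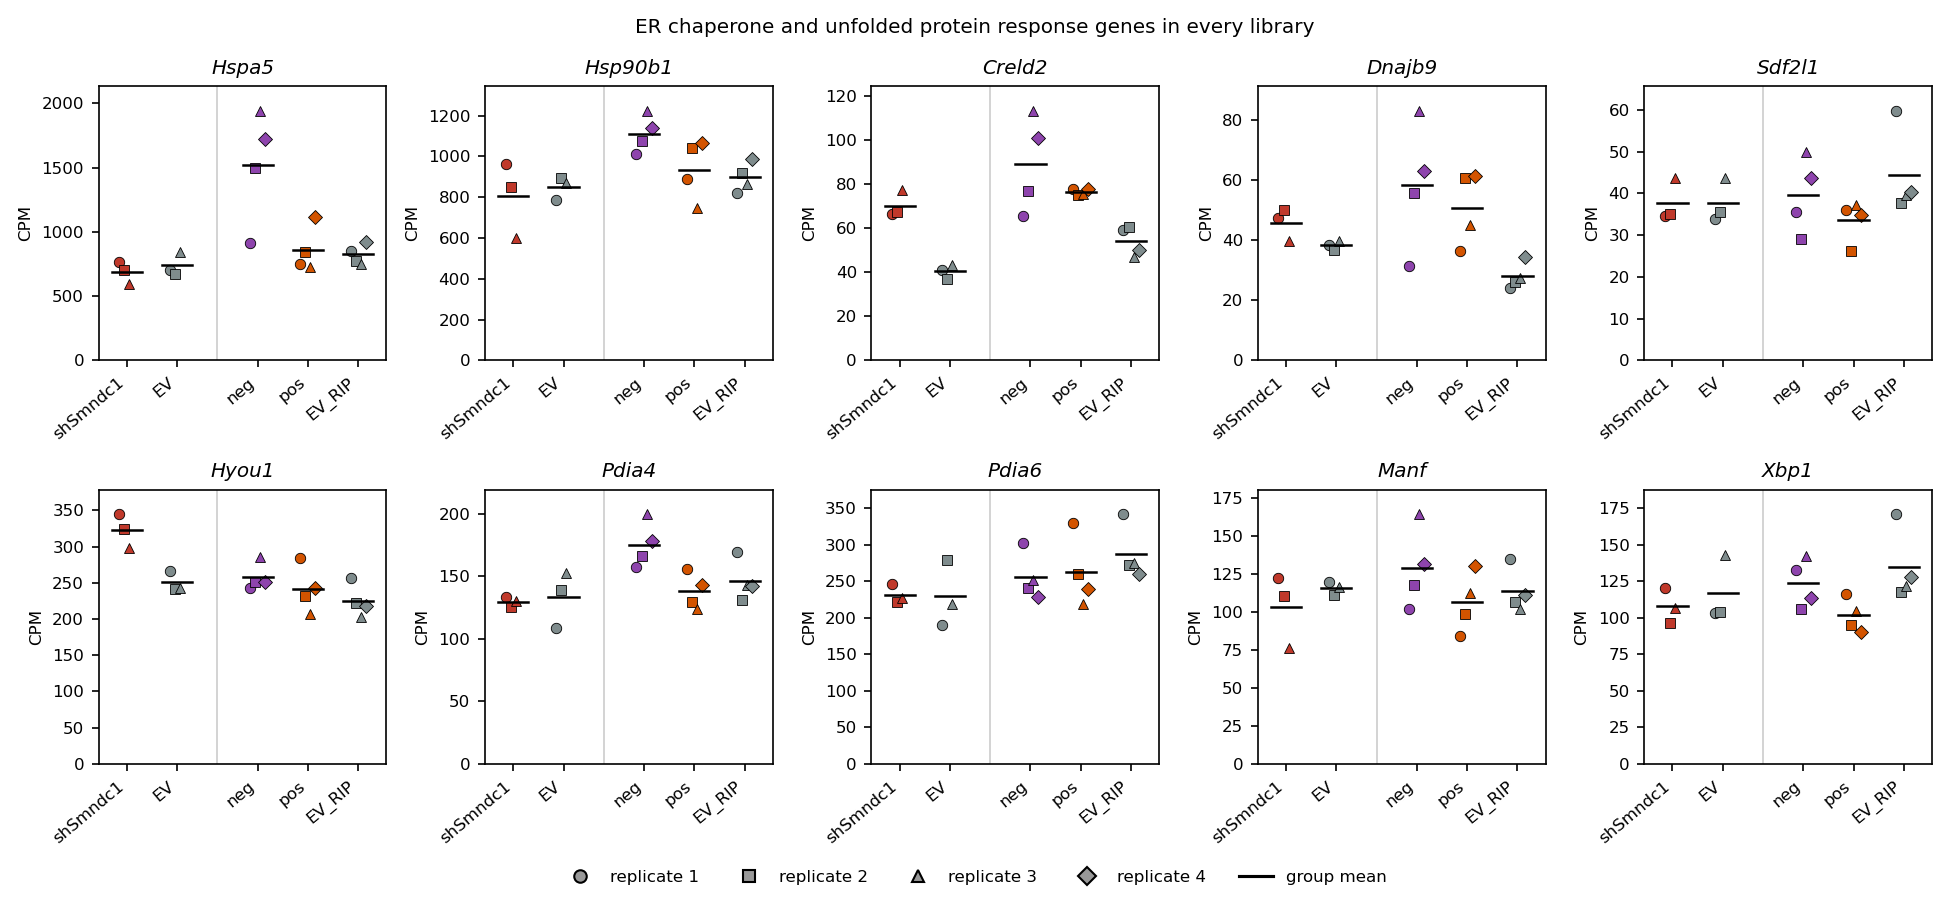
Level in CPM (counts relative to library size, vertical axes) of the 10 genes in each library, 1 panel a gene, with 1 point a library, point shapes for replicate numbers and a line at the mean of each group. Creld2 is higher in all 3 shSmndc1 libraries (66.5 to 77.3 CPM) than in the 3 EV libraries (37.0 to 43.3 CPM), and Hspa5 reaches 1942 CPM in 1 library labelled shSmndc1_RIP_neg.

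Smndc1 itself (ENSMUSG00000025024), the target of the shRNA and a splicing factor, had 10.4, 9.52 and 10.5 CPM in shSmndc1 libraries, against 41.9, 40.2 and 35.1 CPM in EV libraries; CPM are counts relative to library sizes scaled by TMM. In experiment 2 it had 16.6, 22.4, 15.97 and 25.2 CPM in reporter-positive cells, and 23.9, 43.4, 36.3 and 44.6 CPM in the libraries labelled shSmndc1_RIP_neg, against 37.6, 54.9, 39.3 and 46.3 CPM in EV_RIP. It was thus lower in all shSmndc1 and all reporter-positive libraries (log2 fold change -1.94 and -1.15, edgeR adjusted p = 0.00155 and 0.00368). In the libraries labelled shSmndc1_RIP_neg a loss of Smndc1 was not shown (-0.27, adjusted p = 0.377), and replicates 2 to 4 were close to or within the range of EV_RIP. Total counts per library ran between 34045268 and 103048766 except in the libraries labelled shSmndc1_RIP_neg, where they ran between 8084574 and 80757285. Replicates 2 to 4 of that group also stood apart in Rn7sk, a small nuclear RNA without a poly(A) tail. It serves as a sign of RNA or library quality. Rn7sk had 4.53, 18.6, 161 and 45.4 CPM in replicates 1 to 4 of the group. It had 2.44 to 4.68 CPM in reporter-positive cells and 5.24 to 14.2 CPM in EV_RIP, so that replicate 1 lay below every EV_RIP library. EV_RIP replicate 1 had 0.587% of its counts on mitochondrial genes, against 2.35% to 4.595% in the other libraries of experiment 2. The alpha cell marker list summed to 15450 to 20460 CPM in reporter-positive cells, 9152 to 13490 CPM in the libraries labelled shSmndc1_RIP_neg and 8951 to 12800 CPM in EV_RIP, and to 7326 to 10210 CPM in shSmndc1 against 5456 to 9351 CPM in EV. Gcg made up most of it, whereas Gc was at 0 in all libraries. Pcsk2 of the same list, a hormone-processing convertase, went the other way, with means of 748 CPM in reporter-positive cells and 863.5 CPM in the libraries labelled shSmndc1_RIP_neg, against 1682 CPM in EV_RIP, and 937 CPM in shSmndc1 against 1792 CPM in EV. The 6 acinar and duct cell markers summed to 44.8 to 91.0 CPM in reporter-positive cells and 10.7 to 36.1 CPM in the libraries labelled shSmndc1_RIP_neg, against 10.2 to 27.7 CPM in EV_RIP, and to 14.9 to 29.1 CPM in shSmndc1 against 12.4 to 14.2 CPM in EV. Of these, Spp1 averaged 43.0 CPM in reporter-positive cells, against 6.27 CPM in EV_RIP. The 8 beta cell markers summed to 101.6 to 148 CPM in reporter-positive cells, against 89.5 to 122.9 CPM in EV_RIP. The libraries labelled shSmndc1_RIP_neg had 79.1 to 95.9 CPM, and shSmndc1 64.0 to 88.1 CPM against 82.0 to 90.9 CPM in EV. Ins2 averaged 10.1 CPM in reporter-positive cells, 2.74 CPM in the libraries labelled shSmndc1_RIP_neg and 1.74 CPM in EV_RIP. It averaged 2.74 CPM in shSmndc1, against 0.286 CPM in EV. Nkx6-1 of the same list went the other way there, with 45.1 against 57.1 CPM. The part of these marker shifts in the results was not tested.

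In shSmndc1 cells, Creld2 was the gene that changed. CRELD2 is a protein of the ER lumen that is raised by ER stress. Creld2 (ENSMUSG00000023272, chr15:88819646-88826683) had 66.5, 67.4 and 77.3 CPM in shSmndc1 libraries, against 40.9, 37.0 and 43.3 CPM in EV libraries. All 3 shSmndc1 libraries lay above all 3 EV libraries, with a fold change of 1.74 (log2 0.80 ± 0.12 SE, 95% interval 0.53 to 1.07, edgeR adjusted p = 0.0084). It was the only one of the 10 to pass, 1 of 10 higher and 0 lower, where 14.4% of the 18202 genes tested passed, 7.07% higher and 7.32% lower. The median log2 fold change of the 10 was -0.018, and that of all genes tested was -0.0029. Creld2 passed with any 1 of the 6 libraries left out (adjusted p 0.0067 to 0.0484). In bulk RNA, a change in the number of cells of a kind and a change in RNA per cell cannot be told apart.

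Of the list of BiP and its cochaperones, 0 of 12 genes were higher and 1, Sil1, was lower in shSmndc1 cells. Over all genes tested, 7.07% were higher and 7.32% lower. Hspa5 (ENSMUSG00000026864, chr2:34771970-34777547) had 768, 705 and 592 CPM in shSmndc1, against 708, 671 and 844 CPM in EV, and the groups overlapped (log2 -0.11, adjusted p = 0.677). Hyou1 (ENSMUSG00000032115, chr9:44379490-44392369), a nucleotide exchange factor of BiP, had 344, 324 and 298 CPM in shSmndc1, against 267, 241 and 243 CPM in EV. Its groups did not overlap, yet the difference missed the threshold (log2 0.36 ± 0.12 SE, adjusted p = 0.0727). Dnajb9 (ENSMUSG00000014905, chr12:44205559-44210326), which recruits BiP to IRE1, had 47.4, 50.2 and 39.8 CPM in shSmndc1, against 38.4, 36.8 and 39.7 CPM in EV (log2 0.26 ± 0.12 SE, adjusted p = 0.185). Both genes passed when shSmndc1 replicate 3 was left out (edgeR adjusted p = 0.0206 for Hyou1 and 0.0426 for Dnajb9). Each missed the threshold in 5 of 6 fits with 1 library left out (adjusted p up to 0.2265 for Hyou1 and 0.491 for Dnajb9). Hyou1 also passed with a stricter filter on low counts (0.0386). The library of shSmndc1 replicate 3 had 1083 CPM of Malat1, a nuclear RNA, and 4.76% mitochondrial counts, the highest of experiment 1. Creld2, Hyou1 and Dnajb9 were the 3 of 10 genes whose groups did not overlap, all higher, where 39.5% of all genes did not overlap and 19.7% did so upwards.

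The other members were level between shSmndc1 and EV within the spread of the libraries. Hsp90b1 (ENSMUSG00000020048, chr10:86690209-86705509) had 963, 851 and 599 CPM in shSmndc1, against 788, 896 and 868 CPM in EV, so that the knockdown libraries held both the highest and the lowest value. Pdia4 (ENSMUSG00000025823, chr6:47796141-47813430) and Pdia6 (ENSMUSG00000020571, chr12:17266545-17284770), both disulfide isomerases, had log2 fold changes of -0.04 and 0.01. Sdf2l1 (ENSMUSG00000022769, chr16:17130138-17132383), which works in a complex with a J-domain cochaperone of BiP, had 0.0029, and Manf (ENSMUSG00000032575, chr9:106838312-106891979), a secreted protein that also binds BiP in the ER, had -0.16. Xbp1 (ENSMUSG00000020484, chr11:5520659-5525893) had 120, 96.4 and 107 CPM in shSmndc1, against 103, 104 and 143 CPM in EV (log2 -0.11). The signs of Hsp90b1, Sdf2l1, Pdia4, Pdia6, Manf and Xbp1 each turned when some library was left out. Of the exonic bases of Hsp90b1 10.3%, and of Manf 8.85%, lie on the other strand of a second gene, and for the rest of the 10 this share is at most 1.34%; since the strand setting of the counting is not known, the levels of these 2 genes carry that uncertainty.

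**Figure D2:**
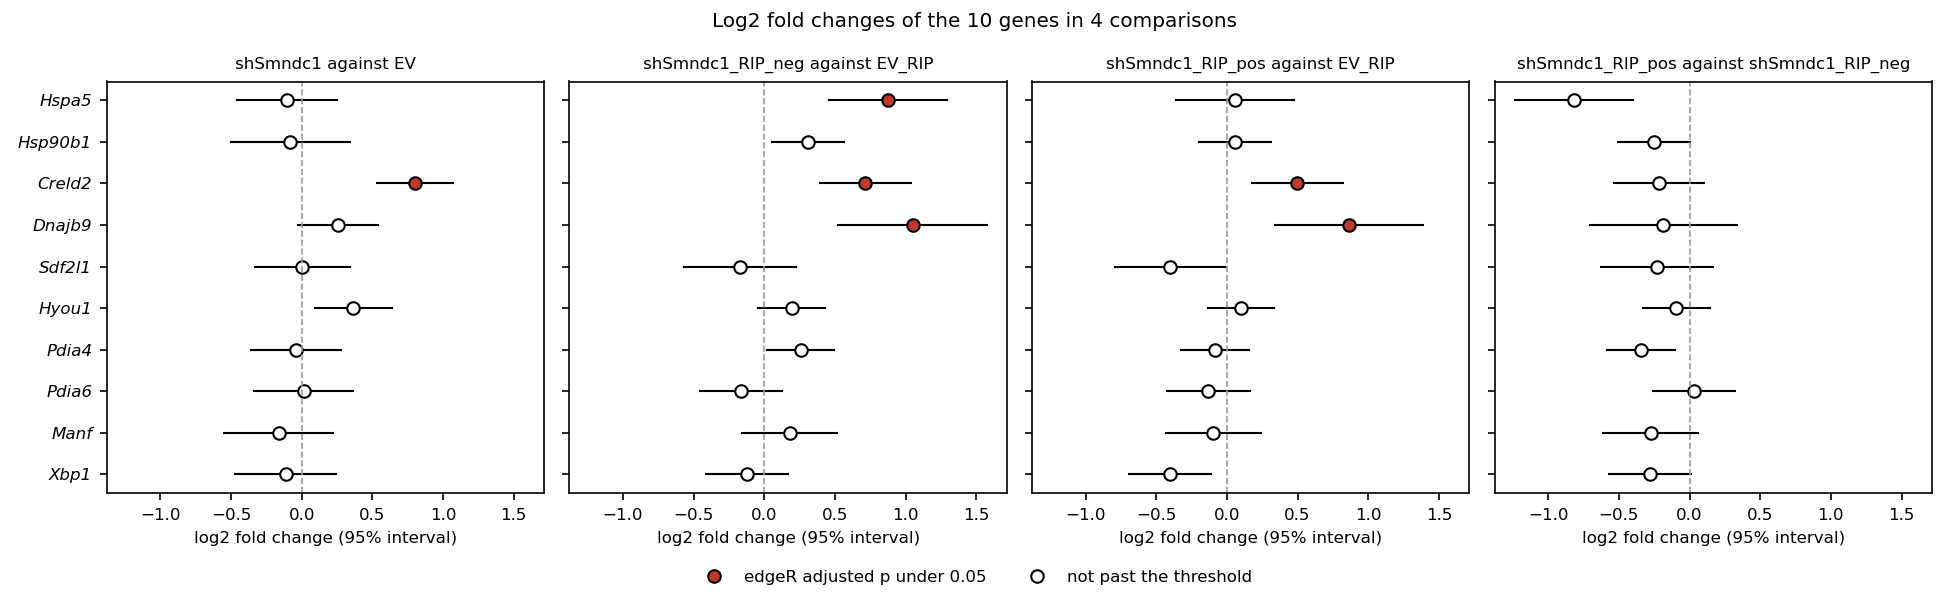
Log2 fold change (horizontal axis) of each of the 10 genes in 4 comparisons, with 95% intervals from edgeR; filled points had an adjusted p under 0.05. Creld2 is filled in each comparison with an empty vector control, and no gene is filled between reporter-positive cells and the libraries labelled shSmndc1_RIP_neg in the fit without pairing.

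In reporter-positive cells, Dnajb9 and Creld2 were higher than in EV_RIP and no member passed as lower. Dnajb9 had 36.4, 60.9, 44.9 and 61.3 CPM in reporter-positive cells, against 23.99, 26.1, 27.5 and 34.4 CPM in EV_RIP. The groups did not overlap, and the fold change was 1.82 (log2 0.86 ± 0.24 SE, adjusted p = 0.0287). Creld2 had 77.8, 75.2, 75.6 and 77.8 CPM in reporter-positive cells, against 59.2, 60.7, 46.9 and 50.02 CPM in EV_RIP. The 4 positive libraries were close together and above every control, with a fold change of 1.41 (log2 0.50 ± 0.15 SE, adjusted p = 0.0353). These were 2 of 10 members higher and 0 lower, where 17.4% of 18897 genes passed, 8.5% higher and 8.9% lower. The median over the 10 was -0.014, against 0.0011 over all genes tested. Both calls lay near the threshold: Creld2 missed it in 7 of 8 fits with 1 library left out (adjusted p up to 0.0967) and Dnajb9 in 4 of 8 (EV_RIP replicate 1 or 3, or reporter-positive replicate 2 or 4, up to 0.0865) and with no filter on low counts (0.0744).

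Xbp1 and Sdf2l1 lay below the controls in every reporter-positive library without passing the test. Xbp1 had 116, 95.2, 105 and 90.5 CPM in reporter-positive cells, against 171, 117, 122 and 128 CPM in EV_RIP (log2 -0.40 ± 0.14 SE, edgeR adjusted p = 0.0532). It passed without EV_RIP replicate 2 (0.0442) or reporter-positive replicate 1 (0.0399). Xbp1 missed the threshold in 6 of 8 fits with 1 library left out, with log2 values from -0.47 to -0.25 over the 8 and adjusted p up to 0.194. It also passed by DESeq2 (0.0476), with no filter on low counts (0.0292) and with the replicate block (0.0113). Sdf2l1 had 36.1, 26.2, 37.3 and 34.9 CPM in reporter-positive cells, against 59.8, 37.7, 39.7 and 40.4 CPM in EV_RIP (log2 -0.40 ± 0.18 SE, adjusted p = 0.140). Together with Dnajb9 and Creld2 above, 4 of 10 members had groups that did not overlap, where 23.4% of all genes had. EV_RIP replicate 1 held the highest control value of both genes, and it is the library with the low mitochondrial share. Hspa5 showed no such separation: it had 751, 842, 729 and 1118 CPM in reporter-positive cells, against 853, 777, 753 and 923 CPM in EV_RIP (log2 0.06, adjusted p = 0.864). Hsp90b1, Hyou1, Pdia4, Pdia6 and Manf had log2 fold changes between -0.13 and 0.10.

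In the libraries labelled shSmndc1_RIP_neg, 3 members were higher than in EV_RIP: Dnajb9, Hspa5 and Creld2. Hspa5 had 913, 1494, 1942 and 1724 CPM in those libraries, against 853, 777, 753 and 923 CPM in EV_RIP. Replicates 2 to 4 were above all controls while replicate 1 lay within their range, and the fold change was 1.84 (log2 0.88 ± 0.20 SE, adjusted p = 0.0162). Dnajb9 had 31.4, 55.8, 83.1 and 62.9 CPM in the libraries labelled shSmndc1_RIP_neg, against 23.99, 26.1, 27.5 and 34.4 CPM in EV_RIP (fold change 2.07, log2 1.05 ± 0.25 SE, adjusted p = 0.0183). Here too replicate 1 was inside the control range and the other libraries above it. Creld2 had 65.7, 76.9, 113 and 101 CPM in the libraries labelled shSmndc1_RIP_neg, against 59.2, 60.7, 46.9 and 50.02 CPM in EV_RIP, with no overlap (fold change 1.64, log2 0.72 ± 0.15 SE, adjusted p = 0.0142). These were 3 of 10 higher and 0 lower, where 13.9% of the genes passed, 8.16% higher and 5.76% lower. The median over the 10 was 0.23, against -0.0090 over all genes tested.

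Hsp90b1 was the second member without overlap, with 1010, 1078, 1223 and 1137 CPM in the libraries labelled shSmndc1_RIP_neg, against 821, 920, 867 and 985 CPM in EV_RIP (log2 0.31, adjusted p = 0.0905); 2 of 10, both higher, compares with 14.4% of all genes in either direction and 7.24% higher. Pdia4 had 157, 166, 199 and 178 CPM in the libraries labelled shSmndc1_RIP_neg, against 169, 131, 143 and 142 CPM in EV_RIP (log2 0.26, adjusted p = 0.123). Hyou1, Manf, Xbp1, Pdia6 and Sdf2l1 lay between -0.17 and 0.19 on the log2 scale. Every member but Pdia6 had its highest value of the group in replicate 3, which has the fewest counts and the most Rn7sk. The mean log2 shift of the 10 genes from the EV_RIP mean was 0.065, 0.19, 0.58 and 0.36 in replicates 1 to 4 of this group, beside Rn7sk of 4.53, 18.6, 161 and 45.4 CPM. It lay between -0.056 and 0.153 in reporter-positive libraries and between -0.10 and 0.159 in EV_RIP libraries. The 10 genes held 0.294%, 0.378%, 0.458% and 0.421% of all counts in the libraries labelled shSmndc1_RIP_neg, against 0.232% to 0.328% in the other 14 libraries.

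**Figure D3:**
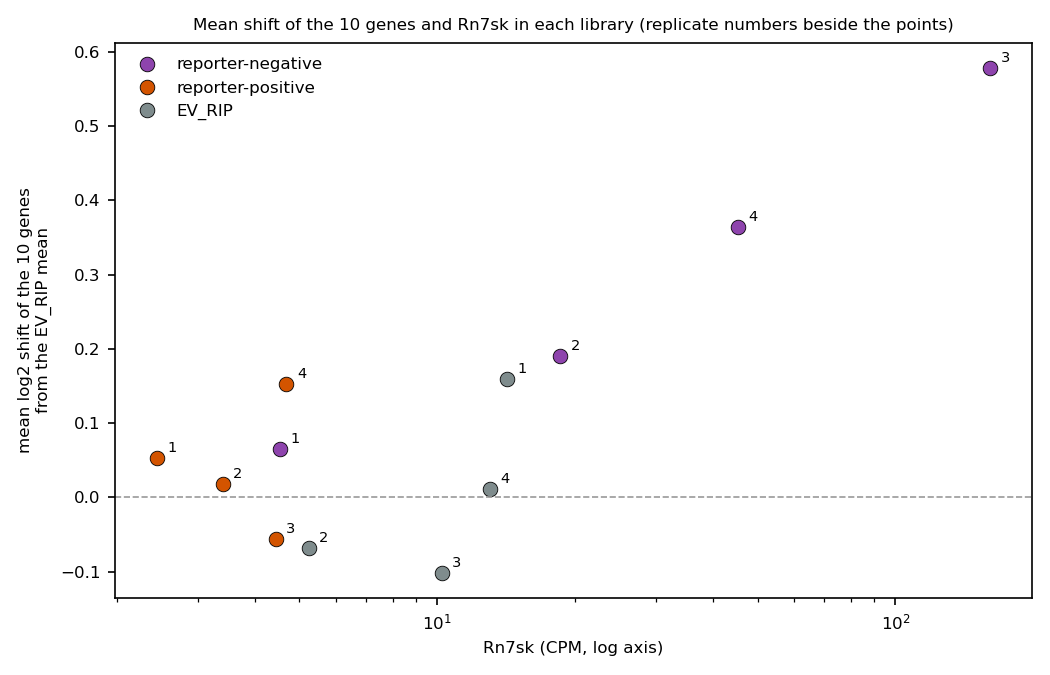
Mean log2 shift of the 10 genes from the EV_RIP mean (vertical axis) against Rn7sk in CPM (horizontal axis, log scale) in the 12 libraries of experiment 2, 1 point a library. The 3 libraries with the most Rn7sk, replicates 2 to 4 labelled shSmndc1_RIP_neg, have shifts of 0.19 to 0.58, and the other 9 lie between -0.10 and 0.159.

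Without replicate 3 alone, which had the most Rn7sk, Hspa5 (log2 0.73) and Creld2 (0.58) still passed and Dnajb9 (0.83, adjusted p = 0.0519) did not. Without replicates 3 and 4 of the group, 4 genes of all those tested passed and none of the members did, with log2 fold changes of 0.53 for Hspa5, 0.63 for Dnajb9 and 0.39 for Creld2 (adjusted p = 0.272, 0.283 and 0.243). With replicate 1 alone, no gene passed, and the values were 0.13 for Hspa5, 0.15 for Dnajb9 and 0.26 for Creld2; its spread was then taken from the other groups. Leaving out replicate 4 alone ended all 3 calls with log2 fold changes near those above, 0.81 for Hspa5, 1.002 for Dnajb9 and 0.64 for Creld2 (adjusted p = 0.0648, 0.0694 and 0.0581). Without replicate 2, Hspa5 (0.0516) and Dnajb9 (0.0534) missed it, and Dnajb9 also did without EV_RIP replicate 1 (0.0564). The part of RNA quality in these values was not tested beyond these fits. Because the reporter-positive cells and the libraries labelled shSmndc1_RIP_neg were both set against the same EV_RIP libraries, their values stand side by side: Dnajb9 was at 0.86 and 1.05, Creld2 at 0.50 and 0.72, Hspa5 at 0.06 and 0.88 and Xbp1 at -0.40 and -0.12 on the log2 scale.

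Between the sorted populations, Hspa5 and Pdia4 were lower in reporter-positive cells in a paired fit of the 8 sorted libraries, which was chosen after seeing the data. Without pairing, edgeR called 0 of 18897 genes (0% of genes; 12.2% at an unadjusted p under 0.05, and 315 genes by DESeq2), and 0 of 10 members. DESeq2 without pairing called 1 member, Hspa5, lower (log2 -0.82, adjusted p = 0.0147), and so did edgeR without replicate 1 labelled shSmndc1_RIP_neg (-0.99, adjusted p = 0.00588). With EV_RIP kept in the fit, the block over 12 libraries called 78 genes and 0 members. Same-numbered libraries of the sorted populations deviated together (correlations across genes of 0.714, 0.453, 0.224 and 0.455), and a fit of these 8 libraries with the replicate block called 1576 of 17994 genes, 8.76%, with 3.87% higher and 4.89% lower. In it Hspa5 was lower in reporter-positive cells than in the libraries labelled shSmndc1_RIP_neg by 0.78 ± 0.15 (SE) on the log2 scale (edgeR adjusted p = 0.0067). The differences were -0.28, -0.83, -1.42 and -0.63 in pairs 1 to 4. Every pair had the lower value in the reporter-positive library, and the largest difference was in pair 3. Mean Hspa5 was 860 CPM in reporter-positive cells, 1518 CPM in the libraries labelled shSmndc1_RIP_neg and 826.5 CPM in EV_RIP. Pdia4 was lower by 0.34 ± 0.10 (edgeR adjusted p = 0.0429), and it did not pass the threshold without pair 2, 3 or 4. Its differences were -0.012, -0.36, -0.68 and -0.32 in the 4 pairs, so that pair 1 showed almost no difference. Mean Pdia4 was 138 CPM in reporter-positive cells, 175 CPM in the libraries labelled shSmndc1_RIP_neg and 146 CPM in EV_RIP. Hspa5 and Pdia4 were thus 2 of 10 members lower, and 0 were higher. Smndc1 itself was lower in the same fit (log2 -0.86, edgeR adjusted p = 0.000558) and in 4 of 4 pairs. The sorted populations therefore also differed in the level of Smndc1, and its part in these differences was not tested.

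Hsp90b1 (-0.26, adjusted p = 0.160), Manf (-0.27, adjusted p = 0.0799) and Xbp1 (-0.27, adjusted p = 0.0561) were below their partner in 4 of 4 pairs and missed the threshold. Creld2 (-0.18), Sdf2l1 (-0.22) and Hyou1 (-0.10) were lower in 3 of 4 pairs, Dnajb9 (-0.13) in 2 and Pdia6 (0.03) in 1. None of these 5 passed. The paired median of the 10 was -0.24. Hspa5 passed without pair 1, 3 or 4 (adjusted p = 0.00136, 0.0152 and 0.0159) but not without pair 2 (0.0542). Without pairs 3 and 4, those with the most Rn7sk, 93 genes and none of the members passed, with Hspa5 at -0.54 (adjusted p = 0.165). In the fit without pairing, Pdia4 was the 1 member of 10 whose groups did not overlap, where 6.58% of all genes did not: 156, 129, 124 and 143 CPM in reporter-positive cells, against 157, 166, 199 and 178 CPM in the libraries labelled shSmndc1_RIP_neg.

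**Figure D4:**
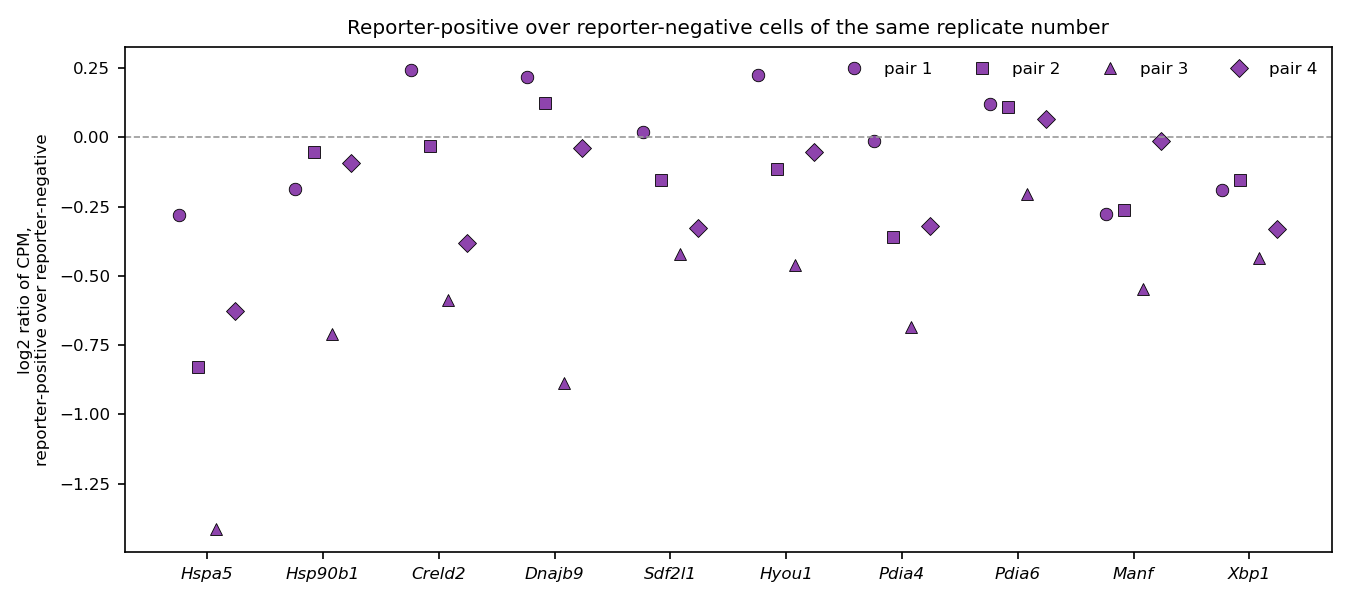
Log2 ratio of CPM in reporter-positive cells over the library labelled shSmndc1_RIP_neg with the same number (vertical axis). The 10 genes stand along the horizontal axis, 1 point a pair. Hspa5 lies below 0 in 4 of 4 pairs, between -0.28 and -1.42, whereas the pairs of Dnajb9 lie on both sides of 0.

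Whether the knockdown acted alike in unsorted and in reporter-positive cells was tested as the difference of shSmndc1 against EV minus reporter-positive cells against EV_RIP. No gene of 20036 passed (0%; 4.31% at an unadjusted p under 0.05, and 3 genes by DESeq2), and no member did. The differences of the 10 ran between -0.59 for Dnajb9 (95% interval -1.27 to 0.08) and 0.42 for Sdf2l1. For Creld2, higher in both comparisons, the difference was 0.31 with an interval of -0.12 to 0.75. That interval holds differences as large as the change of Creld2 in reporter-positive cells.

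The members were set beside 83 other genes of ER folding and the unfolded protein response in 8 lists, of which 82 were tested (Kdelr3 did not pass the filter on low counts). In shSmndc1 cells 6 of the 82 were higher and 7 lower, with a median log2 fold change of 0.0041. In reporter-positive cells none was higher and 12 were lower (median -0.10), and in the libraries labelled shSmndc1_RIP_neg 5 were higher and 8 lower (median -0.061). Of all genes tested, 7.07% were higher and 7.32% lower in shSmndc1 cells. The shares were 8.5% higher and 8.9% lower in reporter-positive cells, and 8.16% and 5.76% in the libraries labelled shSmndc1_RIP_neg.

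**Figure D5:**
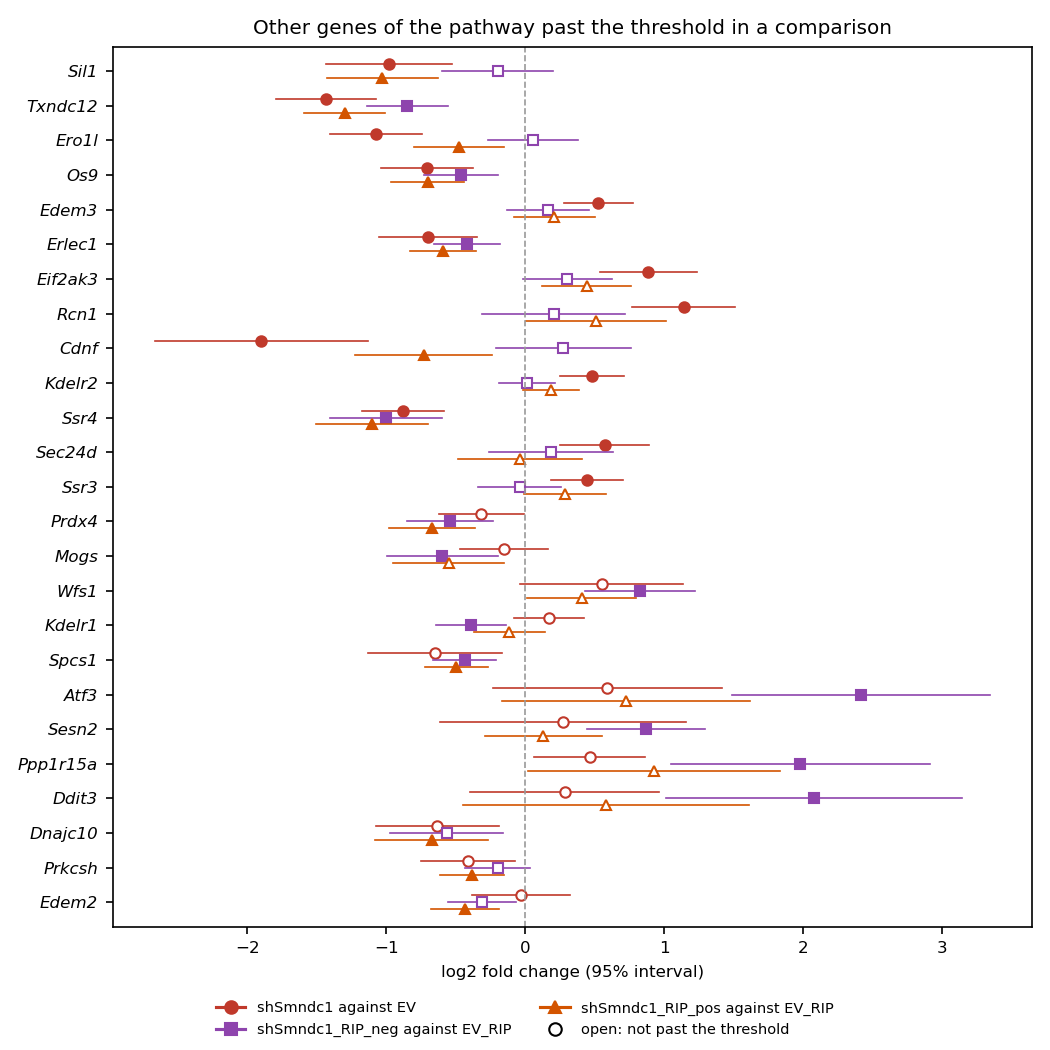
Log2 fold change (horizontal axis) of those other genes of the pathway that passed the threshold in a comparison with an empty vector control. Other genes of the lists are not shown. There is 1 point a gene and comparison, with filled points for an adjusted p under 0.05. Filled points for reporter-positive cells all lie below 0, down to -1.30 for Txndc12, and the points furthest above 0 are Atf3 (2.42) and Ddit3 (2.08) in the libraries labelled shSmndc1_RIP_neg.

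Among cochaperones of BiP, Sil1, a nucleotide exchange factor, was lower in shSmndc1 cells (8.98 ± 1.64 CPM, against 17.7 ± 3.55 CPM in EV, n = 3 each; log2 -0.98, adjusted p = 0.0184). In reporter-positive cells it was also lower (6.90 ± 1.41 CPM, against 14.1 ± 2.88 CPM in EV_RIP, n = 4 each; log2 -1.03, adjusted p = 0.0042), as was Dnajc10, a J-domain reductase (-0.67). Among the oxidoreductases, Txndc12, a small thioredoxin-like protein of the ER, had 23.2, 17.3 and 17.0 CPM in shSmndc1, against 46.2, 57.5 and 51.3 CPM in EV. It had 25.5, 19.8, 21.7 and 21.6 CPM in reporter-positive cells and 35.1, 27.4, 32.5 and 26.3 CPM in the libraries labelled shSmndc1_RIP_neg, against 62.8, 46.5, 49.4 and 59.1 CPM in EV_RIP. Every library labelled with the shRNA lay below every control of its experiment (log2 -1.43, -1.30 and -0.85, adjusted p = 0.00483, 0.000234 and 0.00738). Ero1l, which reoxidises disulfide isomerases, was lower in shSmndc1 (-1.07) and in reporter-positive cells (-0.48), and Prdx4, an ER peroxiredoxin, was lower in both populations of experiment 2 (-0.67 in reporter-positive cells and -0.54 in the libraries labelled shSmndc1_RIP_neg).

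In the degradation list, Os9 and Erlec1, lectins that hand misfolded glycoproteins to the ubiquitin machinery, were lower in shSmndc1 cells (log2 -0.70 each), in reporter-positive cells (-0.70 and -0.59) and in the libraries labelled shSmndc1_RIP_neg (-0.46 and -0.42). Edem3, a mannosidase, was higher in shSmndc1 cells (0.53), and Edem2 was lower in reporter-positive cells (-0.43). Of the translocon genes, Ssr4, a subunit of the translocon-associated complex, averaged 80.2 ± 11.7 CPM in shSmndc1, against 147 ± 6.92 CPM in EV (log2 -0.88, adjusted p = 0.0084). It averaged 84.1 ± 10.2 CPM in reporter-positive cells and 90.2 ± 26.6 CPM in the libraries labelled shSmndc1_RIP_neg, against 180 ± 38.1 CPM in EV_RIP (log2 -1.10 and -1.001). Ssr3, a subunit of the same complex, and Sec24d, a COPII coat protein, were higher in shSmndc1 cells (0.45 and 0.57), and each missed the threshold in 5 of 6 fits with 1 library left out. Of the glycoprotein folding list, Prkcsh, a subunit of glucosidase II, was lower in reporter-positive cells (-0.38) and Mogs, which encodes glucosidase I, in the libraries labelled shSmndc1_RIP_neg (-0.60).

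Of the sensors, Eif2ak3, which encodes PERK, was higher in shSmndc1 cells (159 ± 17.97 CPM, against 86.3 ± 14.6 CPM in EV; log2 0.89 ± 0.15 SE, adjusted p = 0.0127), and Wfs1, an ER membrane protein, was higher in the libraries labelled shSmndc1_RIP_neg (0.83). Among secreted or retained proteins, Cdnf, a relative of Manf, was lower in shSmndc1 cells (0.97 ± 0.21 CPM, against 3.63 ± 1.48 CPM in EV; log2 -1.90, adjusted p = 0.0133) and in reporter-positive cells (-0.73). Rcn1, a calcium-binding ER protein, was higher in shSmndc1 cells (15.2 ± 1.26 CPM, against 6.92 ± 0.99 CPM in EV; log2 1.14, adjusted p = 0.0077), as was Kdelr2, a receptor that returns ER proteins (0.48). The 7 genes lower in shSmndc1 cells, Sil1, Txndc12, Ero1l, Os9, Erlec1, Cdnf and Ssr4, were all among the 12 lower in reporter-positive cells, which is 100% of one list and 58.3% of the other. Over all genes tested in both, which share no control library, 801 were lower in both. That is 60.3% of those lower in shSmndc1 cells and 47.7% of those lower in reporter-positive cells. None of the 6 genes higher in shSmndc1 cells passed as higher in reporter-positive cells, which is 0% of that list. A missed threshold does not show the absence of a change. Mean CPM in reporter-positive cells against EV_RIP were 91.9 against 67.7 for Eif2ak3, 9.08 against 6.40 for Rcn1 and 312 against 256 for Ssr3. They were 94.1 against 82.7 for Kdelr2, 124.5 against 107.7 for Edem3 and, in the other direction, 25.5 against 26.1 for Sec24d. None of these genes passed in the test of the difference of effects. Of all genes tested in both, 640 were higher in both, 52.4% of those higher in shSmndc1 cells and 42.8% of those higher in reporter-positive cells. With 1 library left out, Txndc12, Ero1l and Rcn1 passed in 6 of 6 fits of shSmndc1 against EV, while Sil1, Os9, Erlec1, Edem3 and Kdelr2 missed the threshold in 3, those without EV replicate 2 or 3 or without shSmndc1 replicate 2. In reporter-positive cells Sil1, Txndc12, Prdx4, Os9, Erlec1, Ssr4 and Spcs1, a signal peptidase subunit (-0.50), passed in 8 of 8 such fits, whereas Ero1l and Cdnf missed it in 7, Dnajc10 in 6 and Prkcsh in 5. In the libraries labelled shSmndc1_RIP_neg, Txndc12, Ssr4 and Atf3 passed in 8 of 8, while Os9 and Erlec1 missed it in 5 and Mogs in 6. Mogs also missed it with a stricter filter (edgeR adjusted p = 0.0598) and in a fit of the compared groups alone (0.0838). Of the exonic bases of Eif2ak3 8.05%, of Spcs1 16.3% and of Sil1 5.7% lie on the other strand of a second gene. Their levels carry the uncertainty of the strand setting stated for Hsp90b1 and Manf.

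Of the PERK arm and integrated stress response list, which includes targets of ATF4 and CHOP, 4 of 10 genes were higher and 0 lower in the libraries labelled shSmndc1_RIP_neg, beside 8.16% higher and 5.76% lower of all genes. The other 6 did not pass, and 2 of them had negative values; the median log2 fold change of the list was 0.79. Atf3 had 25.3, 82.0, 99.4 and 114 CPM there, and 12.5, 21.2, 23.8 and 41.5 CPM in reporter-positive cells, against 11.4, 18.6, 13.2 and 16.6 CPM in EV_RIP. Each library labelled shSmndc1_RIP_neg was above all controls (log2 2.42, adjusted p = 0.0108). Ddit3, which encodes CHOP, had 37.8, 175, 246 and 237 CPM there, and 33.6, 61.5, 61.5 and 89.5 CPM in reporter-positive cells, against 27.9, 50.4, 29.5 and 56.6 CPM in EV_RIP (log2 2.08, adjusted p = 0.0206). Replicate 1 again lay within the control range. Ddit3 missed the threshold in 4 of 8 fits with 1 library left out (edgeR adjusted p up to 0.0636) and with no filter on low counts (0.0604). Of its exonic bases 4.73% lie on the other strand of a second gene, Mars, so the unknown strand setting bears on its level too. Ppp1r15a (1.98) and Sesn2 (0.87) were higher as well; none of the list passed in shSmndc1 or in reporter-positive cells, and no gene of the 8 lists other than members passed in the libraries labelled shSmndc1_RIP_neg without replicates 3 and 4. In the paired fit of reporter-positive cells against the libraries labelled shSmndc1_RIP_neg, 12 of the 82 genes were lower and 1, Ssr3, was higher, beside 4.89% lower and 3.87% higher of the 17994 genes tested. Atf3 was lowest relative to its partner (-1.62, adjusted p = 0.000111), and the others lower were Trib3, Chac1, Ppp1r15a, Sesn2, Nupr1, Atf6, Derl3, Sil1, Cdnf, Ero1l and Txndc12.

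The 10 members did not vary as one block over the 18 libraries. After centring on the controls of each experiment, the correlation of a member with the mean of the other 9 was 0.79 for Hspa5 and 0.779 for Pdia4, but 0.0908 for Xbp1 and -0.261 for Pdia6. Outside the list, the genes with the pattern most like the mean of the 10 were Dnajb1 (Pearson r = 0.837), Slc3a2 (0.834), Gm24447 (0.826), Wdr75 (0.821) and Atf6 (0.812) among 11493 genes with a mean of at least 5 CPM. Stbd1, Cyb5r1, Hsph1, 4930455C13Rik and Gm42670 followed at 0.81 to 0.787. Dnajb1 and Hsph1 are chaperones of the cytosol, and Slc3a2 is a subunit of amino acid transporters. These correlations describe libraries that share groups, and the 3 libraries with the most Rn7sk also hold the highest means of the 10 in experiment 2.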

How the data were processed

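Raw counts by Ensembl gene, and FPKM of the same libraries, were deposited by the authors in 1 table of each kind for each experiment. Within each gene, the deposited FPKM were proportional to counts over DESeq2-type size factors (differences of at most 2.2e-16 over 16361 and 14258 genes). The gene lengths behind the FPKM cancel in this check and were not checked. Per the submitters' processing notes, the tools included DESeq2 1.30.0, Picard 2.19.2 and STAR 2.7.5a, and the build was GRCm38/mm10. Roles of the tools, counting program and strand setting: not given in the sources used here. Per the labels' protocols, libraries were stranded mRNA libraries read as 75 bp paired ends. Positions are the deposited ones, 54821 of 55487 genes having identical coordinates in the GENCODE annotation used for exon overlaps. Of 2 genes named Ddit3, the one with the most counts was used.

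The tests used edgeR 4.0.16 in R 4.3.3: filterByExpr, TMM, a robust quasi-likelihood fit and its F-test, with p-values adjusted by Benjamini-Hochberg over all genes tested (threshold 0.05). Experiment 1 (6 libraries) and experiment 2 (12 libraries) were fitted apart; the difference of effects came from a fit of all 18. All 10 members passed the filter in both experiments. Separate cultures are not stated for the replicates; the p-values therefore rest on a spread between libraries that may be technical. Same-numbered libraries of the sorted populations were taken as pairs because the correlation of their deviations from the group means was over 0.1 in all 4 pairs. The labels number the replicates and state no pairs, so the pairing was read from the same counts that were tested. The EV_RIP controls did not meet this rule in all replicates. Their correlations with the libraries labelled shSmndc1_RIP_neg were 0.283, 0.596, -0.217 and -0.337 in replicates 1 to 4. With reporter-positive libraries they were 0.223, 0.506, -0.0571 and -0.0605. The numbers of the EV controls did not meet it in all replicates either. Alternatives were DESeq2 1.42.0, RLE scaling, no filter or a minimum of 5 CPM, the replicate block, only the groups compared and each library left out; fits without the libraries with the most Rn7sk and of the sorted libraries alone were chosen after seeing the data. The procedure was tested on made-up counts drawn from the real means, with a log2 change of 1. It recovered 49.7% of changed genes for shSmndc1 against EV, where 12.5% of its calls were false. Against EV_RIP it recovered 51.3% (2.91% false) for reporter-positive cells and 56.3% (5.31% false) for the libraries labelled shSmndc1_RIP_neg. Between the sorted populations it was 51.8% (4.81% false), and for the difference of effects 22.6% (4.35% false). For shSmndc1 against EV, 197 of 18202 made-up genes were changed, a smaller share than the 14.4% that passed in the data. Recovery and false calls depend on that share, so these figures need not hold for the real counts.

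Named genes are the 10 members, Smndc1, up to 4 genes per pathway list and comparison with the smallest p among those past the threshold, and the 10 genes most like the mean of the members; genes of the paired fit were named after their values were seen. Members and lists were chosen with earlier results of these data known. Promoters are RefSeq sequences of GRCm38.p6.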

Additional observations from a re-analysis of the deposited data

Results flagged for a closer look

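Sdf2l1 had 59.8 CPM in EV_RIP replicate 1, against 37.7 to 40.4 CPM in the other 3 EV_RIP libraries, a gap of 0.876 of the range of the group, above the 95% critical value of Dixon's test for 4 samples. It was the only 1 of 33 groups of values checked with such a gap, and chance gives about 1 in 20. The same library has the low share of mitochondrial counts, and a part of that in the value was not tested.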

How the results depend on the processing

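The lowest count of a member in any library was 415 (Sdf2l1), and no group had more than 4 libraries. The cause of the changes below was not tested. For shSmndc1 against EV, the stricter filter made 2 members higher, with Hyou1 at 0.38 (adjusted p = 0.0386), and Sdf2l1 turned to -0.0098 by DESeq2 and -0.021 with no filter, Pdia6 to -0.0098 with no filter; leaving out 1 library gave 176 to 3341 genes and 1 to 3 members higher. For the libraries labelled shSmndc1_RIP_neg against EV_RIP, genes called were 4019 by DESeq2, 4618 with the replicate block, 1251 with only the groups compared, 4 without replicates 3 and 4, 0 without replicates 2, 3 and 4 (0 members in both), and 218 to 5810 with 1 library left out, with 0 to 4 members higher. For reporter-positive cells against EV_RIP, 1 member, Xbp1, was lower by DESeq2, with no filter, with the replicate block and without replicates 2, 3 and 4 of the libraries labelled shSmndc1_RIP_neg; 1 member was higher with no filter; the replicate block called 5094 genes; leaving out 1 library gave 1301 to 3591 genes, 0 to 2 members higher and 0 to 1 lower. Between the sorted populations, genes called were 315 by DESeq2 (1 member lower, Hspa5), 35 with no filter, 78 with the replicate block in the fit of 12 libraries, and 0 to 565 with 1 library left out (0 to 1 members lower). With the pairing in the 8 sorted libraries there were 1576 genes and 2 members lower, and 1675, 278, 1060 and 894 genes without pairs 1 to 4 (2, 0, 1 and 1 members lower) and 93 without pairs 3 and 4. The difference of effects called 3 genes by DESeq2 and 1 with the replicate block. The block changed no other count of members. In experiment 2 the numbers of the controls met the rule for pairs with the sorted libraries in replicates 1 and 2 but not in replicates 3 and 4.

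None of the values that changed sign had passed the test, except Ddit3 in the libraries labelled shSmndc1_RIP_neg. Over fits with 1 library left out, log2 fold changes for shSmndc1 against EV ran from -0.12 to 0.12 for Sdf2l1, -0.12 to 0.18 for Pdia6, -0.18 to 0.061 for Pdia4, -0.21 to 0.054 for Xbp1, -0.23 to 0.088 for Hsp90b1 and -0.31 to 0.0080 for Manf. For the libraries labelled shSmndc1_RIP_neg against EV_RIP they ran from -0.31 to 0.011 for Sdf2l1 and -0.20 to 0.018 for Xbp1, and for reporter-positive cells against EV_RIP from -0.15 to 0.010 for Pdia4, -0.21 to 0.014 for Manf, -0.10 to 0.12 for Hspa5 and -0.018 to 0.15 for Hsp90b1. Between the sorted populations they ran from -0.39 to 0.027 for Dnajb9 and -0.097 to 0.13 for Pdia6, and for the difference of effects from -0.071 to 0.17 for Pdia4, -0.29 to 0.058 for Hsp90b1 and -0.21 to 0.13 for Manf. Without replicates 3 and 4 labelled shSmndc1_RIP_neg, Manf turned to -0.053 against EV_RIP, and between the sorted populations Creld2 turned to 0.10, Dnajb9 to 0.22, Sdf2l1 to 0.054 and Pdia6 to -0.054. Without replicates 2, 3 and 4, Pdia6 turned to 0.064, Manf to -0.17 and Ddit3 to -0.13 against EV_RIP, and between the sorted populations Creld2 to 0.225, Dnajb9 to 0.70, Pdia6 to -0.21 and Manf to 0.062. In the paired fit Pdia6 was at -0.0040 without pair 2, Dnajb9 at 0.10 and Hyou1 at 0.020 without pair 3, and Creld2 at 0.12, Dnajb9 at 0.18 and Hyou1 at 0.065 without pairs 3 and 4.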
